A study of Mus musculus with 12 samples.

Results

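The Notch pathway genes described here are 2 ligand genes (Jag1 and Dll1), the 4 receptor genes (Notch1 to Notch4) and 4 target genes (Hes1, Hey1, Hey2 and Heyl), all 10 of which were found among 17097 genes on microarrays of primary mouse embryonic fibroblasts (MEFs). The genes were listed by symbol. Where a gene had several probe sets, 1 was chosen by its mean over the 12 arrays, the highest being kept, and 7 further probe sets of 5 of these genes served as a check. The chosen probe set and the next one averaged 5.56 and 3.84 log2 for Jag1, 7.44 and 5.30 for Notch1, 6.79 and 3.89 for Notch3, 3.37 and 3.15 for Notch4, and 3.99 and 3.48 for Heyl.

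The study crossed genotype with treatment. CBP/p300 double-knockout (dKO) cultures were MEFs in which conditional alleles of both coactivator genes were homozygous. CBP and p300 are paralogous lysine acetyltransferases and coactivators. The other cultures are labelled wild type (WT). All cultures, WT included, received Cre-expressing adenovirus at a multiplicity of infection of 100. Embryos were at e14.5 and of F1 background (C57Bl/6 x 129Sv), and MEFs at passage 4 spent 48 h in 3% oxygen, followed by 24 h of normoxia, before treatment. The 4 groups were dKO with dipyridyl (DP) and dKO with ethanol, from lines 1, 5 and 6, and WT with DP and WT with ethanol, from lines 3, 4 and 5. DP, an iron chelator that stabilises hypoxia-inducible factor (HIF), was given at 100 µM for 3 h, and ethanol was its vehicle. Each line gave 1 array per treatment, so each group had 3 arrays.

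In Notch signalling a ligand such as Jagged1 or Delta-like 1 on a cell binds a Notch receptor on its neighbour. ADAM proteases and then gamma-secretase cut the receptor, and its intracellular domain enters the nucleus, binds the DNA-binding protein RBPJ and a Mastermind coactivator, and recruits CBP and p300. The best known target genes encode the Hes and Hey proteins, which are basic helix-loop-helix repressors. In mesenchymal tissue the pathway is known for its part in vascular mural cells, where Notch3 and Jag1 act.

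Values are log2 RMA summaries made by the authors, and a difference of 1 is a 2-fold change of signal. The value after ± is the SE of a difference (n = 3 arrays in each group). Adjusted p-values come from limma and run over all 17097 genes, with calls at an adjusted p under 0.05. Array medians lay between 3.87 and 3.98, and the blank level, taken as the 95th percentile of 17 control probe sets for tag sequences, lay between 3.28 and 3.54. That level was exceeded on all 12 arrays by Jag1, Notch1, Notch3, Hes1, Hey1 and Heyl, on 8 by Notch2, on 5 each by Notch4 and Hey2, and on 1 by Dll1. The number of arrays limits the precision. Levels of different genes are not set against each other, since each probe set binds with its own strength.

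Some facts of the arrays move with the groups. Crebbp, which encodes CBP, differed by -0.85 ± 0.16 between dKO and WT in ethanol (adjusted p = 0.000992) and by -0.76 ± 0.16 under DP (adjusted p = 0.0022), but the position of this probe set in the gene is unknown here, so it may lie outside the deleted exons. Ep300 was not analysed here. Xist lay between 3.94 and 5.32 on the 6 dKO arrays and between 10.3 and 10.7 on the 6 WT arrays, and 3 Y-linked genes were higher in dKO, so genotype and the sex of the embryos cannot be told apart. The gap in signal from the 3' to the 5' end of the beta-actin mRNA, a sign of RNA quality, lay between 0.40 and 0.60 on dKO arrays and between 0.23 and 0.38 on WT arrays, and was higher with DP than with ethanol in both genotypes. Its part in the results was not tested. The ethanol arrays of dKO line 1 and WT line 5 correlated least with their groups (mean r over genes of 0.989 and 0.990, against 0.991 to 0.997 for the other arrays), and a member's call that changes without them is given both ways.

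Of the 10 genes, 6 were lower and 1 was higher in dKO than in WT cells in ethanol. The lower ones were Jag1, Notch1, Notch3, Hes1, Hey1 and Heyl. Among all genes 14.1% were lower and 19.5% higher, so that 33.6% differed between the genotypes in ethanol. Under DP 6 genes were lower and none higher, with Hey2 in place of Heyl, against 16.9% lower and 18.5% higher among all genes (35.4% in all). The median difference of the 10 genes was -1.02 in ethanol and -1.03 under DP, beside -0.01 for all genes in both treatments. Fibroblast genes moved the same way. All 10 fibroblast markers, among them Col1a1, Pdgfrb, Thy1 and Dcn, were lower in dKO in both treatments (median -1.55 in ethanol and -1.61 under DP). Their summed linear signal lay between 12430 and 15420 on dKO arrays and between 31580 and 33620 on WT arrays. In bulk RNA fewer cells of a type and less RNA per cell cannot be told apart, and the part of this difference in the Notch results was not tested.

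**Figure D1:**
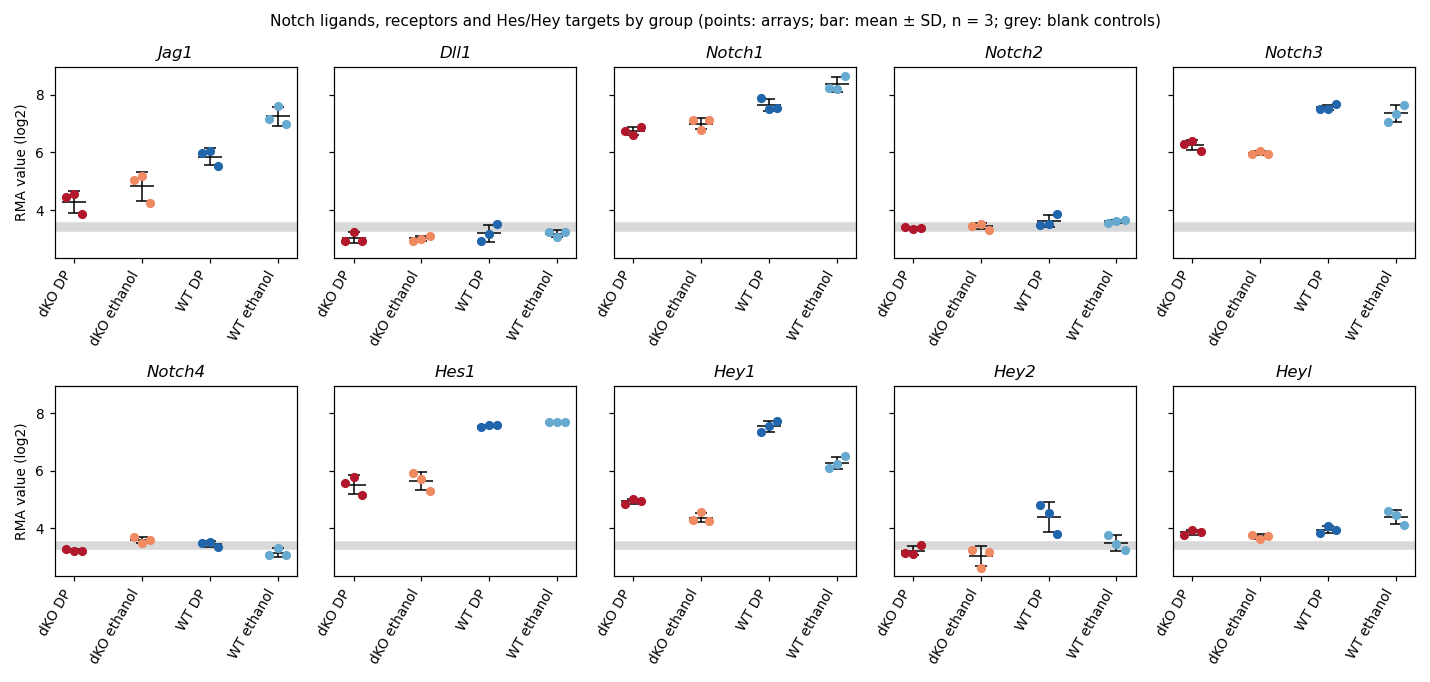
RMA values (log2, y axis) of the 10 genes on the 12 arrays in 4 groups (x axis), with points for arrays, bars for the mean ± SD of 3 arrays and a grey band for the range of the blank control level. Jag1, Notch1, Notch3, Hes1 and Hey1 sit lower on all dKO arrays than on the WT arrays of the same treatment, while Dll1 and Notch4 lie in or near the grey band.

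Jag1, the gene for the ligand Jagged1, was lower in dKO in both treatments. It stood at 5.03, 5.19 and 4.26 log2 in dKO lines 1, 5 and 6 in ethanol, against 7.17, 7.62 and 6.98 in WT lines 3, 4 and 5. Under DP it stood at 4.46, 4.54 and 3.85 in the dKO lines and at 5.98, 6.06 and 5.52 in the WT lines. Every dKO array lay under every WT array, and dKO line 6 was the lowest in both treatments. The dKO signal was 18.5% of the WT signal in ethanol (-2.43 ± 0.26, adjusted p = 1.25e-05) and 33.8% under DP (-1.57 ± 0.26, adjusted p = 0.000418). The other Jag1 probe set, of mean 3.84, differed by -0.95 ± 0.21 in ethanol (adjusted p = 0.0036 over every probe set) and by -0.36 ± 0.21 under DP, which did not pass (adjusted p = 0.215). With the mean of both probe sets the difference was -1.69 in ethanol and -0.97 under DP, and both passed. Dll1, the Delta-like 1 gene, had all 4 group means under the blank level, and its differences of -0.17 ± 0.15 in ethanol and -0.16 ± 0.15 under DP did not pass.

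Notch1 and Notch3, the receptor genes with signal on all arrays, were both lower in dKO. Notch1 stood at 7.12, 6.77 and 7.11 in dKO lines 1, 5 and 6 in ethanol, against 8.22, 8.22 and 8.65 in WT lines 3, 4 and 5, so that the dKO signal was 38.9% of that in WT (-1.36 ± 0.15, adjusted p = 1.75e-05). Under DP it stood at 6.75, 6.60 and 6.87 in dKO, against 7.90, 7.51 and 7.54 in WT (-0.91 ± 0.15, adjusted p = 0.00045). The groups did not overlap in either treatment, and the second Notch1 probe set also passed, with -1.1 ± 0.14 in ethanol and -0.79 ± 0.14 under DP. Notch3, the receptor of vascular mural cells, stood at 5.95, 6.06 and 5.95 in dKO lines 1, 5 and 6 in ethanol, against 7.06, 7.34 and 7.66 in WT lines 3, 4 and 5 (-1.37 ± 0.14, adjusted p = 8.38e-06). Under DP it stood at 6.29, 6.40 and 6.05 in dKO, against 7.52, 7.51 and 7.66 in WT (-1.32 ± 0.14, adjusted p = 1.05e-05). Its dKO signal was thus 38.8% of WT in ethanol and 40.1% under DP, with no overlap in either. Of 10 listed markers of mural and smooth muscle cells 7 were measured. Of these 6 were also lower in dKO in both treatments, such as Myh11 and Rgs5. Among all genes 14.1% were lower in ethanol and 16.9% under DP. In dKO Rgs5 averaged 3.55 in ethanol and 3.40 under DP, close to the blank level. The summed linear signal of the 7 markers lay between 5916 and 7819 on dKO arrays and between 11280 and 12380 on WT arrays. Acta2 weighs most in this sum, with means of 12.57 in dKO and 13.06 in WT in ethanol. The part of these markers in the Notch3 result was not tested. The second Notch3 probe set passed as well, with -0.60 ± 0.14 and -0.67 ± 0.14.

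The probe sets of the remaining receptor genes gave little signal. Notch2 lay between 3.32 and 3.87 over all arrays, and its differences of -0.18 ± 0.11 in ethanol and -0.24 ± 0.11 under DP did not pass. Notch4, the receptor known from endothelium, stood at 3.70, 3.51 and 3.61 in dKO lines 1, 5 and 6 in ethanol, against 3.07, 3.33 and 3.07 in WT lines 3, 4 and 5. Notch4 was the 1 gene of the 10 that was higher in dKO (0.45 ± 0.10, adjusted p = 0.00343), and its WT mean in ethanol lay under the blank level. Its other probe sets differed by 0.22 ± 0.11 and -0.07 ± 0.10 and did not pass, and the mean of all 3 did not pass either (0.20, adjusted p = 0.0832). Of 10 endothelial markers, 6 had a mean at or under the blank level in dKO ethanol arrays and 5 in WT ethanol arrays, Pecam1, Cdh5, Emcn, Tek and Tie1 in both.

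Among the target genes Hes1 and Hey1 were several-fold lower in dKO. Hes1, the most widely used readout of Notch signalling, stood at 5.93, 5.71 and 5.30 in dKO lines 1, 5 and 6 in ethanol, against 7.71, 7.69 and 7.70 in WT lines 3, 4 and 5 (-2.05 ± 0.17, adjusted p = 1.42e-06). Under DP it stood at 5.59, 5.80 and 5.16 in dKO, against 7.53, 7.60 and 7.57 in WT (-2.05 ± 0.17, adjusted p = 1.32e-06). The WT lines lay close together, with an SD of 0.01 in ethanol, while the dKO lines spread with an SD of 0.32, and dKO line 6 was again the lowest. The dKO signal of Hes1 was 24.1% of the WT signal in ethanol and 24.2% under DP.

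Hey1 stood at 4.29, 4.57 and 4.28 in dKO lines 1, 5 and 6 in ethanol, against 6.10, 6.23 and 6.51 in WT lines 3, 4 and 5 (-1.90 ± 0.13, adjusted p = 4.56e-07). Under DP it stood at 4.84, 5.03 and 4.96 in dKO, against 7.35, 7.57 and 7.73 in WT (-2.61 ± 0.13, adjusted p = 4.77e-08). Its dKO signal was 26.7% of WT in ethanol and 16.4% under DP, the lowest share among the 10 genes under DP. Hey2, a close relative of Hey1, stood at 3.16, 3.11 and 3.41 in dKO under DP, with a mean under the blank level, against 4.81, 4.54 and 3.81 in WT (-1.16 ± 0.24, adjusted p = 0.00201). In ethanol it stood at 3.26, 2.64 and 3.20 in dKO, against 3.77, 3.47 and 3.25 in WT, and the groups overlapped (-0.46 ± 0.24, adjusted p = 0.167). Heyl, another gene of the Hey family, passed in ethanol and not under DP. It stood at 3.77, 3.64 and 3.75 in dKO in ethanol, against 4.59, 4.48 and 4.13 in WT (-0.68 ± 0.12, adjusted p = 0.0007). Under DP it stood at 3.76, 3.95 and 3.87 in dKO, against 3.84, 4.08 and 3.95 in WT, and did not pass (-0.09 ± 0.12, adjusted p = 0.608). Of the other Heyl probe sets, the one of mean 3.11 passed in ethanol (-0.56 ± 0.12) and the one of mean 3.48 did not (-0.07 ± 0.17). The mean of 3.11 is under the lowest blank level of any array, 3.28, so that probe set adds little to the call.

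**Figure D2:**
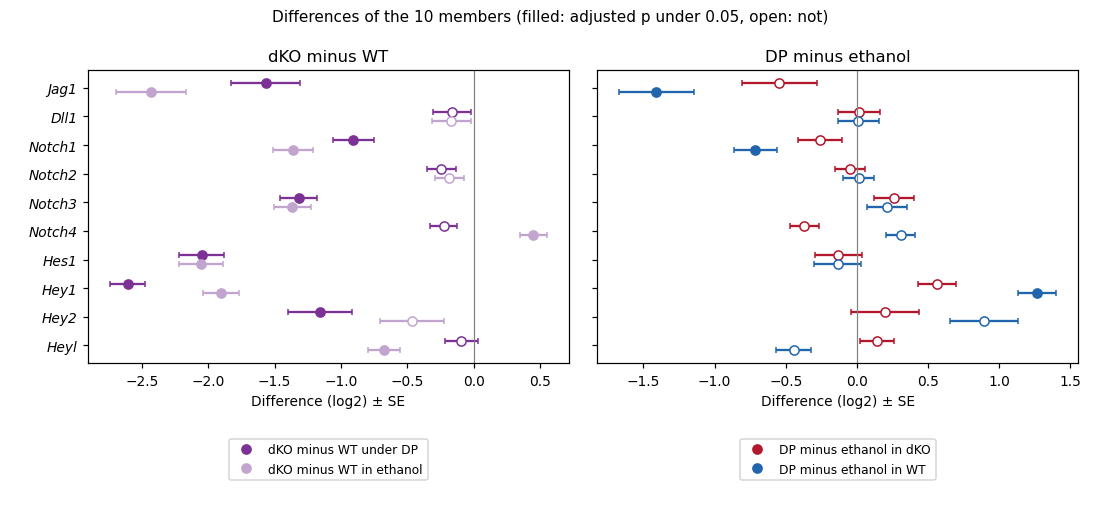
Differences (log2 ± SE, x axis) of the 10 genes (rows), dKO minus WT at left and DP minus ethanol at right, with filled points at an adjusted p under 0.05. Hes1 has the same genotype difference of -2.05 in both treatments, and the called DP changes are Jag1 (-1.41), Notch1 (-0.71) and Hey1 (1.27), all in WT. With the MEF line as a block, which is not drawn, Hey1 and Jag1 also passed in dKO and Hey2 in WT.

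Upstream sequence was at hand for 7 of the 10 genes, in RefSeq promoter windows of build GRCm38.p6. The 4 shown are those of the genes that were lower in dKO in at least 1 treatment and have a window, as 250 bases that end before the annotated start, 5′ to 3′ on the strand of the gene. They are Jag1 (chr2:137116521-137116770, minus strand), Notch1 (chr2:26503823-26504072, minus strand), Notch3 (chr17:32166891-32167140, minus strand) and Hey2 (chr10:30842784-30843033, minus strand). Capitals mark the RBPJ motif GTGGGAA and the cores ACGTG and GCGTG of the HIF-binding element, searched on both strands.
Jag1: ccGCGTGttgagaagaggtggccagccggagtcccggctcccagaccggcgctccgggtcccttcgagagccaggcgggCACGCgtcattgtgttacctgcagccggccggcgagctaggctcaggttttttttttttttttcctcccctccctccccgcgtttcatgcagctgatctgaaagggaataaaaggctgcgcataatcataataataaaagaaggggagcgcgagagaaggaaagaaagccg
Notch1: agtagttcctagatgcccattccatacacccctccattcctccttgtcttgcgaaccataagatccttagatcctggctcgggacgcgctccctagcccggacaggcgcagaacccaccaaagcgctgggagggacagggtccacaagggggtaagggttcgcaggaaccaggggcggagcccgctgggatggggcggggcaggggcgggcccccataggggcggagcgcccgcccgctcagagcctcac
Notch3: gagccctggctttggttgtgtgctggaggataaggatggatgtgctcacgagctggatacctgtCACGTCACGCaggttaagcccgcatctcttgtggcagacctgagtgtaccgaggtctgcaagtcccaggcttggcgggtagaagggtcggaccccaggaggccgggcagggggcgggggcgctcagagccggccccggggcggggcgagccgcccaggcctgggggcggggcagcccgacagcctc
Hey2: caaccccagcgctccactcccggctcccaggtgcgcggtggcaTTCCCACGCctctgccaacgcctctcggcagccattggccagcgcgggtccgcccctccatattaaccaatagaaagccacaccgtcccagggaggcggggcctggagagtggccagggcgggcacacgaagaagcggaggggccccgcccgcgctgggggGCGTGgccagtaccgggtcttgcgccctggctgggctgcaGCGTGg
GTGGGAA was found in the Hey2 window alone of these 4, 207 to 201 bases before the start on the opposite strand, where it overlaps a GCGTG match at 203 to 199. Over 32851 windows of the same length 5.4% held GTGGGAA and 38.6% held ACGTG or GCGTG. Jag1, Notch3 and Hey2 held an ACGTG or GCGTG match and Notch1 held none. A match describes these letters and is not a binding site.

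The next comparison asked which of these genes respond to DP. In the fit with a mean per group, which leaves out the pairing by line, none of the 10 passed in dKO cells. In WT cells Hey1 rose and Jag1 and Notch1 fell. Over all genes 1.01% rose and 0.491% fell in dKO, 1.5% in all, and 3.05% rose and 1.67% fell in WT, 4.73% in all. By limma's unadjusted p under 0.05 Hey1 and Notch4 passed in dKO, but the share of all genes at that looser threshold was not counted. With the MEF line as a block, Hey1 and Jag1 passed in dKO and Hey2 passed in WT as well, so the calls depend on the model. The comparisons of DP with ethanol share arrays with those between genotypes.

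With DP Hey1 changed by 0.55, 0.46 and 0.69 in dKO lines 1, 5 and 6 (0.57 ± 0.13, adjusted p = 0.0632). That change passed with the MEF line as a block (adjusted p = 0.0233, and 0.00256 to 0.216 over all alternatives). In WT lines 3, 4 and 5 it rose by 1.25, 1.33 and 1.22, to 2.41-fold the ethanol signal (1.27 ± 0.13, adjusted p = 6.28e-05). The dKO lines all changed by less than the WT lines, yet the difference between the responses, -0.70 ± 0.19, did not pass over all genes (adjusted p = 0.258). Hey2 changed by -0.09, 0.47 and 0.21 in the dKO lines (0.20 ± 0.24, adjusted p = 0.74). In the WT lines it changed by 1.04, 1.07 and 0.56 (0.89 ± 0.24, adjusted p = 0.0548, 0.00579 with the line as a block and up to 0.231 over all alternatives). Heyl changed by -0.01, 0.31 and 0.12 in dKO (0.14 ± 0.12, adjusted p = 0.61) and by -0.75, -0.40 and -0.18 in WT (-0.44 ± 0.12, adjusted p = 0.0602). Without the deviating ethanol arrays Heyl passed in WT (-0.58, adjusted p = 0.00543), and likewise without that of WT line 5 alone (adjusted p = 0.00802), with 0.00467 to 0.39 over all alternatives. Hes1, in contrast to Hey1, changed by -0.34, 0.09 and -0.14 in dKO (-0.13 ± 0.17, adjusted p = 0.76) and by -0.18, -0.10 and -0.13 in WT (-0.13 ± 0.17, adjusted p = 0.787).

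Jag1 changed with DP by -0.57, -0.65 and -0.41 in dKO lines 1, 5 and 6 (-0.54 ± 0.26, adjusted p = 0.369), and this passed with the MEF line as a block (adjusted p = 0.0477, the lowest over all alternatives). With the mean of both probe sets the dKO change was -0.07 (adjusted p = 0.875). In WT lines 3, 4 and 5 Jag1 fell by 1.19, 1.57 and 1.46 on the log2 scale, to 37.7% of the ethanol signal (-1.41 ± 0.26, adjusted p = 0.00622). The second Jag1 probe set changed by -0.62 ± 0.21 in WT, which did not pass over every probe set (adjusted p = 0.165). Notch1 changed by -0.37, -0.16 and -0.24 in dKO lines 1, 5 and 6 (-0.26 ± 0.15, adjusted p = 0.454) and by -0.32, -0.71 and -1.11 in WT lines 3, 4 and 5 (-0.71 ± 0.15, adjusted p = 0.0158). Its WT call was lost without the WT ethanol array of line 5 (-0.57, adjusted p = 0.0561), the WT DP array of line 4 (-0.64, adjusted p = 0.0851) or the WT DP array of line 5 (-0.66, adjusted p = 0.0796), and over all alternatives its adjusted p lay between 0.00908 and 0.0851. Its second probe set did not pass in WT (-0.53 ± 0.14, adjusted p = 0.0693). Notch3 changed by 0.34, 0.34 and 0.10 in dKO (0.26 ± 0.14) and by 0.46, 0.17 and 0.00 in WT (0.21 ± 0.14), and passed in neither.

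**Figure D3:**
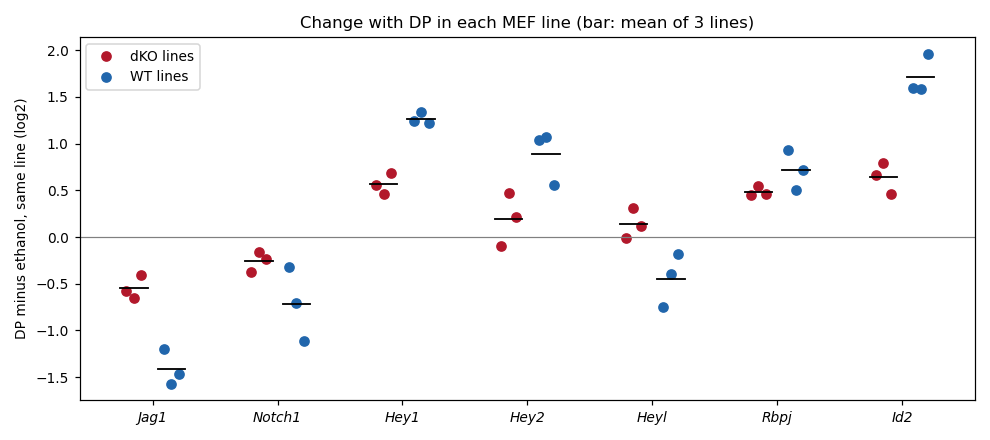
Difference between the DP and ethanol arrays of the same line (log2, y axis) for 7 genes (x axis), with points for lines and bars for means of 3 lines, dKO in red left of WT in blue. Hey1 lies between 0.46 and 0.69 in dKO and between 1.22 and 1.33 in WT, and Jag1 between -0.65 and -0.41 in dKO and between -1.57 and -1.19 in WT.

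The test of the difference between the DP responses (dKO minus WT) passed for none of the 10 genes, against 0.562% of all genes (0.0468% with a higher and 0.515% with a lower response in dKO). By limma's unadjusted p under 0.05 it passed for Jag1, Notch4, Hey1 and Heyl. The share of all genes at that looser threshold was not counted, so the 0.562% is no measure for these 4. Jag1 differed by 0.86 ± 0.37 (adjusted p = 0.772), Notch1 by 0.46 ± 0.22 (adjusted p = 0.859), Hey2 by -0.69 ± 0.34 (adjusted p = 0.873) and Heyl by 0.59 ± 0.17 (adjusted p = 0.342). When both deviating ethanol arrays were left out, Heyl passed (0.75, adjusted p = 0.0464), as it did without the WT line 5 ethanol array alone (0.72, adjusted p = 0.0496), with 0.0316 to 0.857 over all alternatives. Notch4 differed between DP and ethanol by -0.41 to -0.29 in the dKO lines and by 0.20 to 0.43 in the WT lines, and the difference of -0.68 ± 0.14 did not pass (adjusted p = 0.0666), with all values near the blank level. It passed without the WT ethanol array of line 4 (-0.76, adjusted p = 0.0367) and with array weights (adjusted p = 0.0166), under which Hey1 passed too (-0.71, adjusted p = 0.0373). For Hes1 the difference was 0.01 ± 0.24 and for Notch3 0.05 ± 0.20.

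The order of the group levels differed between the genes. For Jag1 and Notch1 it ran from dKO with DP, through dKO with ethanol and WT with DP, to WT with ethanol as the highest, and the dKO groups overlapped. For Hey1 WT with DP was the highest, followed by WT with ethanol, dKO with DP and dKO with ethanol, with no overlap. For Hey2 WT with DP stood above the other groups, and for Heyl WT with ethanol did, while the other groups of each gene overlapped, save for Heyl in dKO with ethanol, which lay under WT with DP. For Hes1 and Notch3 the genotypes formed separate levels, and the treatments overlapped within each, save for Hes1 in WT, where the DP arrays lay slightly under the ethanol arrays without passing the test.

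Further Notch pathway genes were read from 6 lists, with 73 genes measured that are not among the 10. In ethanol 19 were higher and 17 lower in dKO, or 36 of 73 against 33.6% of all genes, and their median difference was 0.04. Other targets of the pathway were mostly lower, with 9 of 17 lower and 2 higher (median -0.43), beside the 14.1% lower and 19.5% higher among all genes. Hes6, unlike Hes1, averaged more in dKO (8.00) than in WT (7.47) in ethanol. Several targets that were not called lay at or under the blank level, where a change could not show. Snai2, a repressor of epithelial genes, differed by -2.43 ± 0.18, Ccnd1, which encodes cyclin D1, by -2.26 ± 0.12, and Runx1, a transcription factor gene, by -2.02 ± 0.19. Nrarp, a feedback inhibitor made from a Notch target gene, was chosen after its values were seen and differed by -0.43 ± 0.14 (adjusted p = 0.0281), and by -0.81 ± 0.14 under DP. Its dKO means, 3.59 in ethanol and 3.48 under DP, lay near the blank level, so the size of these differences is uncertain. Many genes of this list also have inputs other than Notch, such as BMP signals for Id1 and Id3.

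The nuclear partners differed in both directions. Rbpj, the gene for the DNA-binding partner of Notch, stood at 7.71, 7.56 and 7.69 in dKO lines 1, 5 and 6 in ethanol, against 8.35, 8.61 and 8.37 in WT lines 3, 4 and 5 (-0.79 ± 0.10, adjusted p = 4e-05). It was lower on every dKO array, and under DP the difference was -1.03 ± 0.10 (adjusted p = 4.38e-06). Kat2b, which encodes the acetyltransferase PCAF, was higher in dKO (1.65 ± 0.15), as was Snw1, which encodes the cofactor SKIP (1.1 ± 0.13). Of 9 measured genes of this list 3 were higher and 2 lower in ethanol, beside 19.5% higher and 14.1% lower among all genes. Crebbp, itself a target of the dKO genotype, is 1 of the 2 lower genes and is also counted among the further pathway genes. Of 9 corepressor genes 4 were higher and 3 lower, beside the same shares of all genes. Kdm5a (1.25 ± 0.24) was among the higher. Tle2 (-1.33 ± 0.13) and Tle3 (-1.24 ± 0.13), which encode Groucho-type corepressors that bind Hes proteins, were among the lower. Tle4 of the same family went the other way, averaging 7.17 in dKO and 6.22 in WT with ethanol. Tle2 had a mean under the blank level in dKO, so its difference runs against a signal not above background.

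Of 14 measured genes that modify and cut the receptor 5 were higher and none lower in ethanol, beside 19.5% higher and 14.1% lower among all genes. They were led by Psenen (0.70 ± 0.10) and Ncstn (0.69 ± 0.16), which encode subunits of gamma-secretase, and Poglut1 (0.50 ± 0.10), which encodes a glucosyltransferase that modifies Notch. Of 17 genes of ligand and receptor turnover 5 were higher and 2 lower, or 7 of 17 beside 33.6% of all genes. Numb, which encodes an inhibitor of Notch, was higher (0.94 ± 0.08), Hif1an, the gene for the asparagine hydroxylase FIH, was higher (0.59 ± 0.13), and Dtx4, a Deltex ubiquitin ligase gene, was lower (-1.04 ± 0.13). Of 7 other ligand genes only Mfap5, a microfibril gene whose product can bind Notch1, was lower in ethanol (-2.31 ± 0.21). Under DP 15 of the 73 genes were higher and 19 lower, beside 18.5% higher and 16.9% lower among all genes, with 10 of 17 other targets lower and 1 higher. Those were led by Id3 (-2.76 ± 0.17), Snai1 (-2.40 ± 0.12), a relative of Snai2, and Ccnd1 (-2.36 ± 0.12), and the ligand gene Dll4 passed (-0.33 ± 0.12, adjusted p = 0.0392) with means under the blank level in every group but WT with DP, so that no change of its level is read from it.

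**Figure D4:**
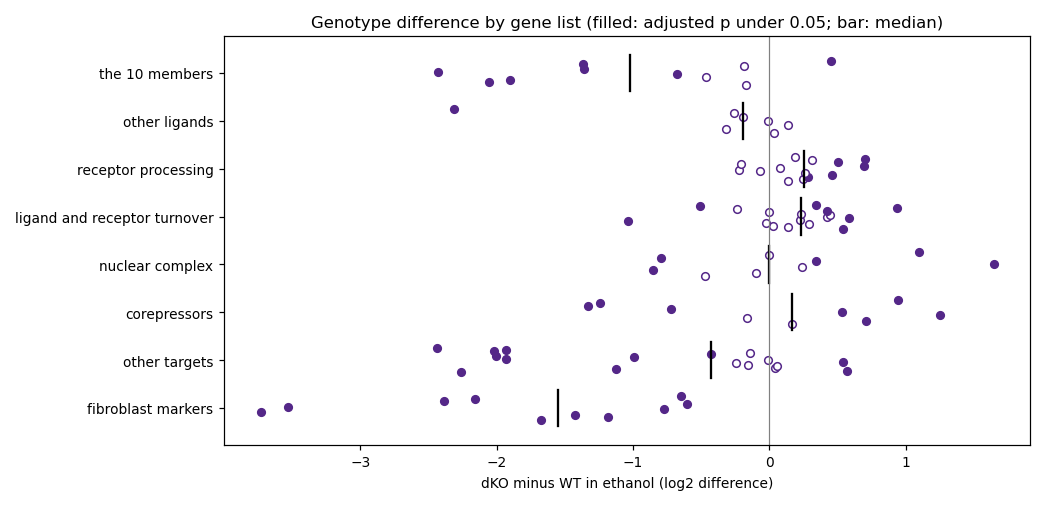
Difference dKO minus WT in ethanol (log2, x axis) of each gene by list (rows), with filled points at an adjusted p under 0.05 and a bar at the median. The bar lies at -1.02 for the 10 members, at -0.43 for the other targets, at 0.25 for receptor processing and at -1.55 for the fibroblast markers.

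With DP 2 of these 73 further genes rose and 1 fell in dKO, and 5 rose and 1 fell in WT, beside 1.5% of all genes changed in dKO and 4.73% in WT. With array weights 12 passed in dKO and 12 in WT. The share of all genes called was not counted with array weights or in other alternatives. Rbpj rose in both genotypes, by 0.48 ± 0.10 in dKO (adjusted p = 0.0278) and by 0.72 ± 0.10 in WT (adjusted p = 0.000593). Its lines changed by 0.45, 0.55 and 0.46 in dKO and by 0.94, 0.51 and 0.71 in WT, so that the ranges overlapped. Maml1, a Mastermind coactivator gene, rose in WT (0.61 ± 0.09), as did Hes6, a relative of Hes1 (0.83 ± 0.13), and Neurl1a, a ubiquitin ligase gene of ligand uptake (0.53 ± 0.12). Id2, which encodes an inhibitor of helix-loop-helix factors, rose in both, by 0.64 ± 0.11 in dKO and by 1.71 ± 0.11 in WT. Snai2 fell in WT (-1.33 ± 0.18) and Id3, a relative of Id2, fell in dKO (-0.79 ± 0.17). In dKO 0 to 2 of these genes were called when an array was left out, and 0 without the DP array of line 1 or of line 5.

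The genes most like each of the 10 across the 12 arrays were sought among genes averaging 5 log2 or more, for the 6 whose SD over the arrays was at least 0.5. Points of a genotype share lines, and for each of these genes but Hey2 much of the correlation is the difference between the genotypes. Hes1 ran closest to Bcat1 (r = 0.998), Ltbp1 (r = 0.997) and Cnn1 (r = 0.997). Notch3 ran closest to Smad3 (r = 0.988), the gene for a mediator of TGF-beta signals, and Hey1 to Col27a1 (r = 0.985), Ackr3 (r = 0.985) and Kif21b (r = 0.985). Jag1 ran closest to Ankrd1 (r = 0.979), Spry1 (r = 0.979) and Spry4 (r = 0.976), the Spry genes encoding Sprouty inhibitors of growth factor signalling. Notch1 ran closest to the chemokine gene Cxcl1 (r = 0.983), and Hey2 to Ctnnd1 (r = 0.930). Hey2 and Ctnnd1 both stood apart mainly in WT with DP, at means of 4.39 and 9.48, against 3.50 and 9.05 in WT with ethanol.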

How the data were processed

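Values are log2 RMA summaries per probe set of Affymetrix mouse arrays, made by the authors in Expression Console 1.1 from Affymetrix (per the submitters' processing notes) and used as deposited. From 45141 probe sets, 104 controls were set aside, and 28898 carried exactly 1 gene symbol in the platform annotation (551 several, 15588 none). Symbols were updated through gene identifiers for 28689, which gave 17097 genes.

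Each contrast came from a single limma 3.58.1 fit (R 4.3.3) on all 12 arrays with a mean per group, Benjamini-Hochberg adjustment over all genes and no filter on dim genes. The fit was also run on simulated arrays drawn independently, with no shared line, so that run cannot speak to the pairing in these data. Per the labels each replicate is another MEF line, and DP and ethanol arrays of a number share a line. Deviations of the paired arrays from their group means correlated with r between 0.044 and 0.425 over 8917 genes.

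The members and lists were chosen with earlier results of these data known. Named were the members, up to 3 called genes of largest change per pathway list and contrast, Rbpj and Crebbp, marker genes, Nrarp (outside the rule, chosen after its values were seen) and up to 3 genes of highest r per member. Lists of fibroblast, mural, endothelial, skeletal muscle, neural, epithelial and macrophage markers served to describe the cultures. Alternatives were the line as a block (random for genotype contrasts), an intensity trend, robust moderation, array weights, cyclic loess, median centring, a filter on the dimmest 40% of genes, averaging a gene's probe sets, only the arrays compared, omission of the deviating arrays and of each array, and adjustment over every probe set, which was added after seeing the data.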

Additional observations from a re-analysis of the deposited data

Results flagged for a closer look

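The response of Id2, which encodes an inhibitor of helix-loop-helix factors, differed between the genotypes by limma's test of the difference. Id2 stood at 6.59, 6.72 and 6.35 log2 with DP in dKO lines 1, 5 and 6, against 5.92, 5.93 and 5.89 with ethanol. In WT lines 3, 4 and 5 it stood at 8.59, 8.55 and 8.70 with DP, against 7.0, 6.97 and 6.74 with ethanol. The rise was 0.64 in dKO and 1.71 in WT, and the difference of -1.072 (SE 0.155) passed over all genes (adjusted p = 0.00551). The lines lay between 0.46 and 0.79 in dKO and between 1.58 and 1.96 in WT, with no overlap. Of the 73 further Notch pathway genes no other passed this test, beside 0.562% of all genes. Over the alternatives 1 to 3 of the 73 passed.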

How the results depend on the processing

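Over the alternatives 809 of 875 values of the 10 genes kept direction and call, 327 of 330 for the genotype differences. With the replicate block (MEF line) 2 of the 10 genes passed with DP in dKO, Hey1 and Jag1, and Hey2 passed in WT; the block gave 2 further pathway genes in dKO. Array weights gave 2 genes in dKO, 5 in WT and 3 for the difference of the DP responses (Notch4, Hey1 and Heyl), and 12, 12 and 3 further pathway genes. Cyclic loess, median centring and the filter on dim genes gave 1 gene each in dKO (Hey1). Without the 2 deviating ethanol arrays the difference passed for 1 gene (Heyl) and 2 further genes, and with only the arrays compared 0 further genes passed in dKO. The dim filter removed Dll1, Notch2, Notch4, Hey2 and Heyl. With arrays left out in turn, 0 to 1 gene passed in dKO, 2 to 3 in WT and 0 to 1 for the difference, and 0 to 2, 5 to 6 and 1 to 2 further genes. The share of all genes called was not counted for any alternative, so these counts cannot be set against it. The cause of these shifts was not tested.

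Sign changes touched 9 small DP values, none past 0.129 in size. For DP in dKO, Dll1 was -0.0642 with array weights, -0.0221 without the deviating arrays and -0.0959 to 0.0717 with arrays left out. Hes1 was 0.177, 0.0147 and -0.304 to 0.0494 under the same settings, and Notch2 was 0.0366 with array weights and -0.102 to 0.0005 with arrays left out. For DP in WT, Dll1 was -0.0467 with median centring and -0.149 to 0.152 with arrays left out. Notch2 was -0.0127 with array weights, -0.0452 with centring and -0.108 to 0.0789 with arrays left out. For the difference, Dll1 was -0.0773 with array weights, -0.0094 with cyclic loess, -0.0649 without the deviating arrays and -0.137 to 0.164 with arrays left out. Hes1 was -0.169 to 0.184 with arrays left out. Notch2 was 0.0493 with array weights, 0.0283 with centring and -0.126 to 0.0604 with arrays left out. Notch3 was -0.0098 with the mean of its probe sets, -0.12 without the deviating arrays and -0.104 to 0.194 with arrays left out.

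Genotype and embryo sex cannot be told apart, and 3 arrays per group limit the precision. Values of Dll1, Notch2, Notch4 and Hey2 in dKO lie near the blank level, where a fall cannot be followed.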

Other observations

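Markers of other cell types were mostly dim. None of 8 skeletal muscle markers differed between the genotypes in ethanol, beside 33.6% of all genes. Of these 8, 7 in dKO and 6 in WT had ethanol means at or under the blank level, where a difference could hardly show. Of 6 measured neural markers only the neuronal tubulin gene Tubb3 passed in ethanol, and it was lower in dKO (-3.51 ± 0.30). Gfap and Sox2 of that list had means at or under the blank level in all 4 groups. The keratin genes Krt18 (-2.04 ± 0.19) and Krt8 (-1.52 ± 0.21) were lower in dKO, among 4 of 8 epithelial markers. Of 8 macrophage markers Cd68 (1.53 ± 0.29) and Cd14 (0.99 ± 0.20) were higher in dKO, while Lyz2 (-3.41 ± 0.59) and Csf1r (-0.66 ± 0.15) were lower, and Ptprc and Itgam were at or under the blank level in all 4 groups. Of 10 endothelial markers Esam was higher (0.55 ± 0.16) and Flt1 lower (-1.24 ± 0.17). None of the markers passed for a DP effect in either genotype.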
